A study of Drosophila melanogaster with 15 samples.

Results

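INTACT-RNAseq libraries of mushroom body (MB) nuclei from trained trx-KD flies were compared with those from trained control flies, to ask which gene functions differed between the genotypes after training. The comparison holds 8 of the 15 libraries of the series, 4 of trained trx-KD flies and 4 of trained controls, chosen by their genotype and treatment labels. The other 7 libraries, 4 of naïve controls and 3 of naïve trx-KD flies, were used only where stated. Of the 17559 genes in the files, 9237 passed the filter on low counts and were tested. Control and trx-KD flies shared the w* background, UAS-unc84::GFP, which encodes the GFP nuclear tag, UAS-Dicer2, a transgene that strengthens RNA interference, and R14H06-Gal4, a driver of UAS transgenes in Kenyon cells that also marks a few other cells faintly. Trx-KD flies carried in addition the hairpin insertion P{GD4502}v37715, opposite the tag. The genotypes as listed thus differ by 1 hairpin insertion, and other differences between the strains were not tested. Another hairpin or a hairpin control line was not analysed here. Nuclei came from pooled fly heads, and the labels give no training protocol, time after training, age, sex or batch.

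Trithorax (Trx) is a histone methyltransferase of the COMPASS family that methylates histone H3 at lysine 4 and is best known for maintaining the active state of Hox genes against the Polycomb group. Kenyon cells are the intrinsic neurons of the MB, the fly's center for associative memory, in which dopamine receptors, cAMP signalling and new transcription are needed for long-term memory. INTACT captures nuclei through a tag on their envelope, so the RNA measured is nuclear and holds many transcripts that are still being made or processed.

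Counts on genes lay between 16375276 and 24698847 in the 8 libraries, and Pearson's r of log2 expression between replicate libraries of these 2 groups between 0.977 and 0.994 across genes, which are not independent replicates. None of these pairs differed by less than the sampling noise (chi-square per degree of freedom of at least 9.54). All 20 Kenyon cell identity genes listed, such as ey, dac and mub, were detected, and their summed level was 23220 to 25150 CPM (a gene's counts relative to the library's total, scaled by TMM) in controls and 26300 to 29780 CPM in trx-KD. Markers of other cells of the head were present in both genotypes. Photoreceptor markers summed to 10440 to 13170 CPM in controls and 9646 to 12400 in trx-KD, muscle markers to 7412 to 15690 and 7190 to 13870, and glial markers to 1203 to 1362 and 1104 to 1432, so these ranges overlapped. A fall of the share of one cell type and a fall of its RNA per cell cannot be told apart in such bulk libraries. Some genes were listed at 0 in all 8 libraries, among them the neuronal gene Syx1A and the photoreceptor gene Arr2, so a 0 in the files is not always absence of the RNA. Trx-KD replicates 3 and 4 stood apart from the other trained libraries in several gene groups named below, and the main counts are also given without them, a choice made after seeing the data.

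The targeted gene, trx (FBgn0003862, chromosome 3R, 14263358 to 14286903 in BDGP6.54 coordinates), was read at 556, 563, 587 and 585 CPM in the control libraries and at 493, 520, 544 and 502 CPM in trx-KD. The groups did not overlap. The level of trx RNA in nuclei was lower by a small amount, with a log2 fold change of -0.15 ± 0.05 (SE, n = 4 against 4, adjusted p = 0.0744). The call was lost when any of control replicates 2, 3 and 4 or trx-KD replicates 1 and 4 was left out (adjusted p up to 0.189). In naïve flies the log2 fold change of trx was -0.11, which did not pass the test (adjusted p = 0.304). Dcr-2, the endogenous gene copied in the UAS-Dicer2 transgene, was read at 1211, 1101, 1033 and 1257 CPM in controls and at 709, 824, 728 and 835 CPM in trx-KD. It fell by 0.57 on the log2 scale (adjusted p = 0.00459) and by 0.56 in naïve flies (adjusted p = 0.0144). Reads of the transgene and of the endogenous gene cannot be told apart, nor, without a stated strand setting, those of Rab4 on the other strand. The marker gene w, which transposon insertions commonly carry, was listed at 0 in 15 of 15 libraries.

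After training, 1284 of 9237 genes differed between the genotypes at an adjusted p under 0.1, which is 13.9% of genes tested. Of these, 658 (7.12%) were higher and 626 (6.78%) lower in trx-KD. The median size of a called log2 fold change was 0.34, and 98 called genes differed by more than 1. The groups did not overlap for 1644 genes (17.8%). At an adjusted p under 0.05, 721 genes (7.81%) were called, 392 (4.24%) higher and 329 (3.56%) lower. The number of calls depended on single libraries. Without control replicate 2, 3 or 4 it was 503, 672 or 495, and without trx-KD replicate 4 it was 574, while without trx-KD replicate 1 or 2 it rose to 1808. Without trx-KD replicates 3 and 4 together it was 543. Scaling to library totals alone, without TMM, moved the split to 378 higher and 1031 lower, so that 26.8% rather than 51.2% of called genes were higher. The directions of the gene groups below are given relative to TMM scaling.

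The same direction was mostly seen in naïve flies, whose 7 libraries are not part of the trained comparison. Of the 658 genes higher after training, 570 (86.6%) had an estimate above 0 in naïve flies, against 46.7% of all genes, and 241 were also called higher. Of the 626 lower genes, 622 were tested in naïve flies, 549 of these (88.3%) had an estimate below 0, against 53.3% of all genes, and 156 were also called lower. In naïve flies alone 591 genes (6.27%) were higher and 742 (7.88%) lower. The difference between the trained and the naïve contrast was tested in 9749 genes as an interaction over all 15 libraries. No gene was called by edgeR (smallest adjusted p = 0.363), 1055 had an unadjusted p under 0.05, and DESeq2 called 24. On simulated counts this edgeR test called 27.3% of log2 changes of 0.5 and 67.7% of changes of 1, so smaller differences can be missed. Without trx-KD trained replicate 2, edgeR called 189 genes. The smallest unadjusted interaction p-values belonged to CG4962, CG15098, glob1, Dpck and Hml. CG4962, for example, had an interaction log2 fold change of 1.36 (adjusted p = 0.363).

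**Figure D1:**
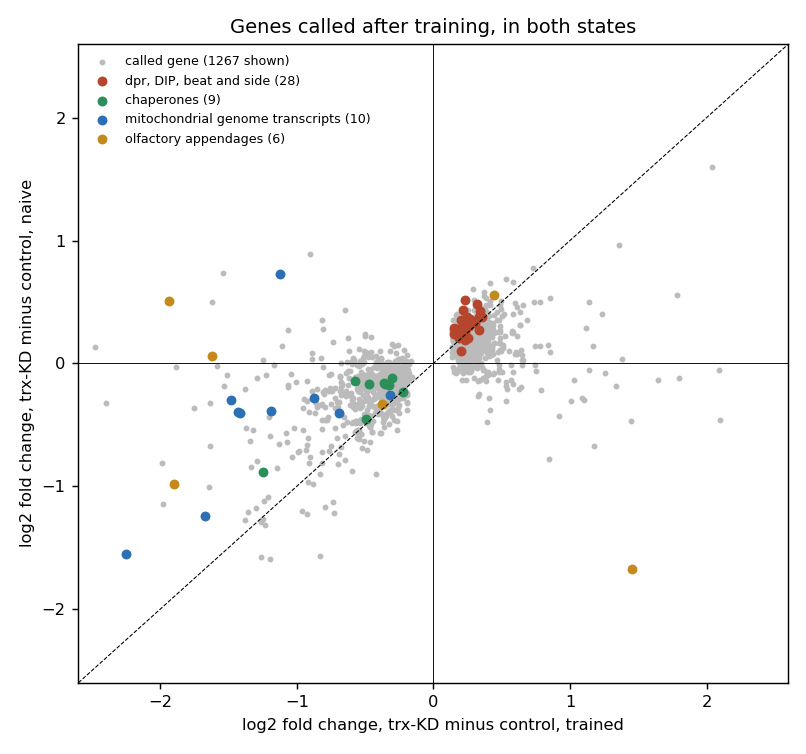
Log2 fold change of trx-KD minus control in naïve flies (y axis) against that in trained flies (x axis), for genes called in the trained comparison. Each dot is a gene, 1267 are shown and 13 lie outside the axes, and colours mark 4 gene lists. Cell surface genes of the dpr, DIP, beat and side families lie above 0 in both states, and chaperone genes below 0 in both.

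In 6 of 10 lists of neuronal genes, many members were higher in trx-KD nuclei after training. These 6 lists, of cell surface recognition, synaptic release, ion channels, neurotransmitter receptors, cAMP and G protein signalling and Kenyon cell identity, had 40.4% to 57.9% of their tested members called higher, where 7.12% of all genes were. The steps were small, with called members of these lists rising by 0.14 to 0.49 on the log2 scale. The median log2 fold change of each of the 6 was 0.11 to 0.20, against -0.03 over all genes. The other 4 neuronal lists were nearer the background in the share called higher. Of 31 neuropeptide genes 3 (9.68%) rose and 1 fell, of 27 actin remodelling genes 1 (3.7%) rose and 2 (7.41%) fell, of 15 clock genes 2 (13.3%) rose and 1 fell, and activity-regulated genes are given below. Lowered counts under single left-out libraries are given with each list. In those 4 fits, without control replicate 2, 3 or 4 or trx-KD replicate 4, 2.97% to 3.72% of all genes were called higher. Without trx-KD replicates 3 and 4, where 3.15% of all genes were higher, the 6 lists had 12 of 53, 16 of 38, 9 of 34, 12 of 47, 7 of 29 and 6 of 20 higher members, in the order named.

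The dpr, DIP, beat and side families encode immunoglobulin domain proteins of the neuronal surface that pair with each other during the choice of synaptic partners and axon paths. Of 53 members tested, 28 rose and none fell, with a median log2 fold change of 0.20. The beat-VI RNA was read at 246, 248, 252 and 230 CPM in controls and at 306, 302, 315 and 316 CPM in trx-KD. Every trx-KD library lay above every control library, and the log2 fold change was 0.34 ± 0.05 (adjusted p = 0.00521). The gene dpr10, whose protein acts with its DIP partners to match motor neurons to muscles, rose from 211 ± 8.85 to 266 ± 15.5 CPM (mean ± SD, n = 4 each, adjusted p = 0.012). Rises of 0.33 and 0.32 on the log2 scale were measured for beat-IV and dpr15. In naïve flies 35 members were called higher, 24 of them also after training. In the 4 fits named above 9 to 11 members were called.

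Of 38 genes of synaptic release tested, 22 rose and 1 fell (median 0.16). The active zone gene unc-13, whose protein primes synaptic vesicles for fusion, was read at 2537, 2568, 2534 and 2527 CPM in controls and at 2908, 3020, 3433 and 3190 CPM in trx-KD. The trx-KD libraries were all above the controls, replicate 3 being the highest (log2 fold change 0.30 ± 0.05, adjusted p = 0.0121). Fife, an active zone scaffold, rose by 0.27, the synaptotagmin Syt7 by 0.28 and its relative Sytbeta by 0.36, each with no overlap between groups. The 1 gene that fell was alphaSnap, which helps to take apart used SNARE complexes, from 84.2 ± 11.1 to 55.7 ± 10.2 CPM (adjusted p = 0.0246). In naïve flies 11 members were called higher, and in the 4 fits 11 to 13.

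Ion channel genes rose in 16 of 34 cases, with none lower (median 0.14). The largest rise was that of eag, a voltage-gated potassium channel first found by its leg-shaking mutants. RNA of eag was read at 472, 476, 495 and 465 CPM in controls and at 605, 638, 735 and 709 CPM in trx-KD. The groups were far apart for this list, with a log2 fold change of 0.49 ± 0.06 (adjusted p = 0.00459), and the value in naïve flies was 0.51 (adjusted p = 0.00359). The potassium channels SLO2 and Sh rose by 0.25 and 0.34, and cac, the calcium channel of the active zone, by 0.24. In naïve flies 13 channel genes were called higher and 1 lower, and in the 4 fits 6 to 9 were higher.

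Among 47 neurotransmitter receptor genes 19 rose and 1 fell (median 0.16). Dop1R1, the dopamine receptor needed in Kenyon cells for learning, was read at 976, 893, 857 and 937 CPM in controls and at 1133, 1250, 1173 and 1235 CPM in trx-KD. Its groups did not overlap (log2 fold change 0.39 ± 0.05, adjusted p = 0.00507), and it was also higher in naïve flies by 0.31 (adjusted p = 0.0648). The metabotropic GABA receptor gene GABA-B-R1 rose by 0.33, the nicotinic receptor subunit nAChRalpha5 by 0.34, and Rdl, the GABA-gated chloride channel, by 0.38. GluRIIE, a subunit of the glutamate receptor of the neuromuscular junction, fell from 2.9 ± 0.71 to 1.57 ± 0.324 CPM (adjusted p = 0.0487), a call that was lost without control replicate 2, 3 or 4 or trx-KD replicate 4 (adjusted p up to 0.151). In naïve flies 18 receptor genes were higher, and in the 4 fits 12 to 14.

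In cAMP and G protein signalling, the pathway of the classical learning mutants, 13 of 29 genes rose and 2 fell (median 0.11). Pde1c, a phosphodiesterase that breaks down cyclic nucleotides, rose from 1290 ± 27.4 to 1616 ± 72.2 CPM (log2 fold change 0.33, adjusted p = 0.00507). Nf1, a Ras GTPase-activating protein required for learning, rose by 0.25, Pka-R2, a regulatory subunit of protein kinase A, by 0.33, and the G protein alpha subunit gene Galphao by 0.34. The 2 genes that fell were CrebB, the cAMP-responsive transcription factor of long-term memory, and Ac78C, an adenylyl cyclase. CrebB was read at 94.0, 108, 107 and 106 CPM in controls and at 85.2, 86.5, 90.4 and 81.7 CPM in trx-KD. The lowest control, replicate 1, was still above the highest trx-KD library (log2 fold change -0.27 ± 0.06, adjusted p = 0.0298). The CrebB call was lost without control replicate 2 or 4 or trx-KD replicate 4, and that of Ac78C without control replicate 4. In naïve flies 7 members were higher and 4 lower, and in the 4 fits 7 to 8 were higher.

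Of the 20 Kenyon cell identity genes, 10 rose and none fell (median 0.19). Pka-C1, the catalytic subunit of protein kinase A, was read at 1750, 1759, 1641 and 1917 CPM in controls and at 1956, 2183, 2397 and 2348 CPM in trx-KD. The groups did not overlap, although control replicate 4 and trx-KD replicate 1 lay close together (log2 fold change 0.33 ± 0.07, adjusted p = 0.0213). The naïve value of Pka-C1 was 0.02 (adjusted p = 0.933), and its interaction with training was not called. The RNA-binding protein gene mub rose by 0.34 and 14-3-3zeta, known as the learning gene leonardo, by 0.35. The naïve values of these were 0.08 and 0.01, and neither was called. Scaled over all 15 libraries, 14-3-3zeta was at 1888, 1702, 1909 and 2713 CPM in naïve controls and at 2148, 2001 and 2031 CPM in naïve trx-KD. Its naïve value thus depended on naïve control replicate 4, the highest naïve library for 14-3-3zeta and also for mub (6116 CPM). In naïve flies 2 members of the list were called higher, and in the 4 fits 5 to 7.

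**Figure D2:**
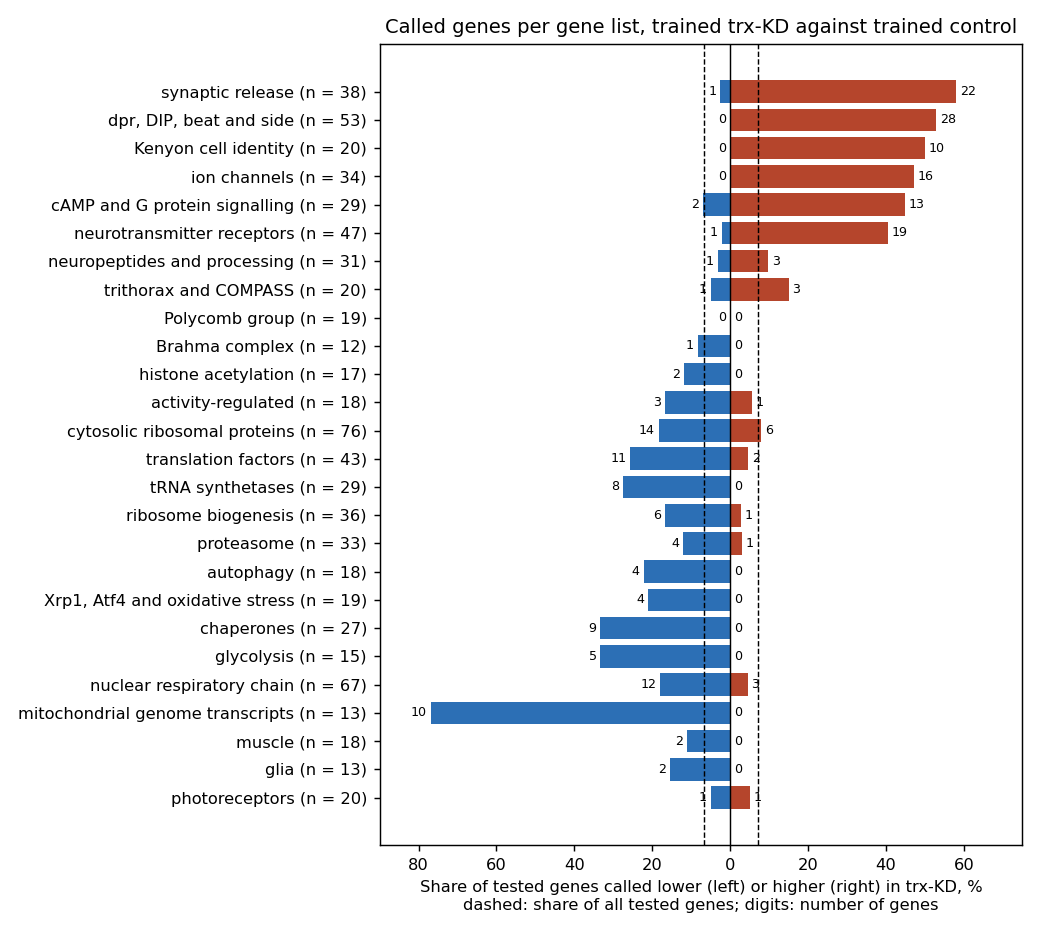
Share of the tested members of each gene list that were called higher (right, red) or lower (left, blue) in trained trx-KD against trained control, in percent, with the number of genes at each bar. Dashed lines mark the shares over all tested genes, 7.12% higher and 6.78% lower. The 6 lists at the top reach 40.4% or more to the right, and mitochondrial genome transcripts reach 76.9% to the left.

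The share of genes called higher grew with the length of the gene from its start to its end in the annotation. Of genes under 2 kb, 2.55% were higher, of those of 10 to 20 kb 13.3%, and of those over 50 kb 37.5% (111 of 296). The share called lower was 6.55% under 2 kb and 1.35% over 50 kb. The 10 neuronal lists together hold many long genes, but the rise with length was also measured outside them, from 2.51% under 2 kb to 30.1% (74 of 246) over 50 kb. Within these 10 lists it went from 9.09% (2 of 22) to 74% (37 of 50). The median span was 13.2 kb for genes called higher, 2.78 kb for genes called lower and 2.87 kb for those not called. In the 4 fits without control replicate 2, 3 or 4 or trx-KD replicate 4, 20.9% to 25.3% of the genes over 50 kb and 0.644% to 1.03% of those under 2 kb were higher. The median log2 fold change over all genes of a class, called or not, was -0.06 under 2 kb and 0.12 over 50 kb.

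Chromosome 4 stood apart from the other arms. It is the small, largely heterochromatic dot chromosome of the fly, whose genes are bound by a protein specific to this chromosome. Of its 89 tested genes, 38 (42.7%) were higher and 2 lower in trx-KD, with a median log2 fold change of 0.21. On the X and the arms of chromosomes 2 and 3, 6.31% to 7.33% of genes were higher, and on the Y none of 9. The genes called were not limited to long or neuronal genes. Of chromosome 4 genes in none of the 10 neuronal lists 32 of 81 (39.5%) were higher, and of those up to 10 kb 16 of 49 (32.7%), against 3.63% of genes of that length elsewhere. PlexB, a semaphorin receptor (chromosome 4, 32478 to 43778), was read at 82.4, 81.3, 81.2 and 85.0 CPM in controls and at 103, 113, 162 and 134 CPM in trx-KD. The trx-KD libraries were all higher, replicates 3 and 4 most (log2 fold change 0.63 ± 0.12, adjusted p = 0.0154). The transcription factor gene pan, of Wnt signalling, rose by 0.19, Hcf, a cofactor found in histone-modifying complexes, by 0.25, and the translation factor gene eIF4G1 by 0.23.

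On chromosome 4, too, trx-KD replicates 3 and 4 were the highest libraries. The mean deviation of its genes from their average over the 8 libraries was 0.29 and 0.16 on the log2 scale in trx-KD replicates 3 and 4, -0.02 and -0.04 in replicates 1 and 2, and -0.15 to -0.07 in the controls. All trx-KD libraries thus lay above all controls. Without replicates 3 and 4, 18 of 89 genes (20.2%) were called higher, where 3.15% of all genes were. In the 4 fits without control replicate 2, 3 or 4 or trx-KD replicate 4 the number was 20 to 21. The call of pan was lost without control replicate 2 or 4 or trx-KD replicate 4. Those of Hcf and eIF4G1 held in only 2 of the 8 fits without 1 library. In naïve flies 19 of 88 genes were higher, 14 of them also after training, with a median of 0.13.

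**Figure D3:**
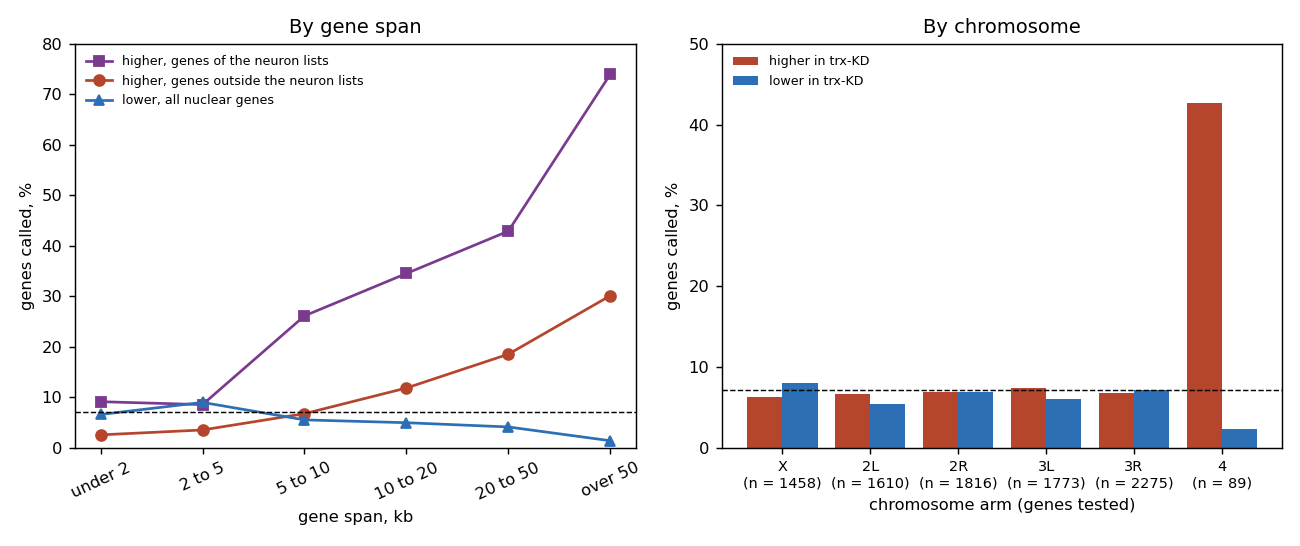
Percent of tested genes called in trained trx-KD against trained control by gene span in kb (left) and by chromosome arm (right), the dashed line marking the 7.12% of all genes called higher. The share called higher rises with span within and outside the 10 neuronal lists, and chromosome 4 reaches 42.7% where the other arms shown reach at most 7.33%.

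Transcripts of the mitochondrial genome were lower in trained trx-KD than in trained control libraries. They are made inside mitochondria, and in a preparation of nuclei they come from what remains attached to or mixed with the nuclei. Of 13 protein-coding transcripts tested, 10 fell and none rose (median -1.12), where 6.78% of all genes were lower, and 8 to 9 were called in the 4 fits. The number without trx-KD replicates 3 and 4 was also 10, with a median of -0.68. The share of gene counts from the mitochondrial genome was 0.959%, 1.01%, 0.946% and 0.816% in the control libraries and 0.667%, 0.443%, 0.241% and 0.294% in trx-KD. Without the 2 ribosomal RNAs it was 0.243% to 0.319% in controls and 0.155% to 0.184% in trx-KD. The groups did not overlap in either measure, and trx-KD replicates 3 and 4 were the lowest in both.

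Transcripts of the mitochondrial genome fell by unequal amounts. The cytochrome oxidase subunit mt:CoI was read at 871, 1145, 1111 and 1099 CPM in controls and at 647, 664, 688 and 625 CPM in trx-KD. The trx-KD libraries lay close together, all below the controls, and mt:CoI fell by 0.69 on the log2 scale (adjusted p = 0.0039). The cytochrome b transcript mt:Cyt-b went from 123, 214, 149 and 170 CPM to 78.8, 83.0, 25.6 and 47.6 CPM, with the lowest values in replicates 3 and 4 (log2 fold change -1.48 ± 0.31, adjusted p = 0.0203). The ribosomal RNA mt:lrRNA went from 6512, 6105, 6173 and 4509 CPM to 4480, 2372, 838 and 1244 CPM, a call (adjusted p = 0.0639) that was lost when any control library or trx-KD replicate 4 was left out. Larger falls were measured for the complex I subunits mt:ND6 (-2.25) and mt:ND3 (-1.67), which had few counts. Of the 13 transcripts, 5 were lower in naïve flies (median -0.36), among them mt:CoI (-0.40). Naïve control replicate 4 had a mitochondrial share of 0.368%, below that of every naïve trx-KD library (0.418% to 0.732%).

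**Figure D4:**
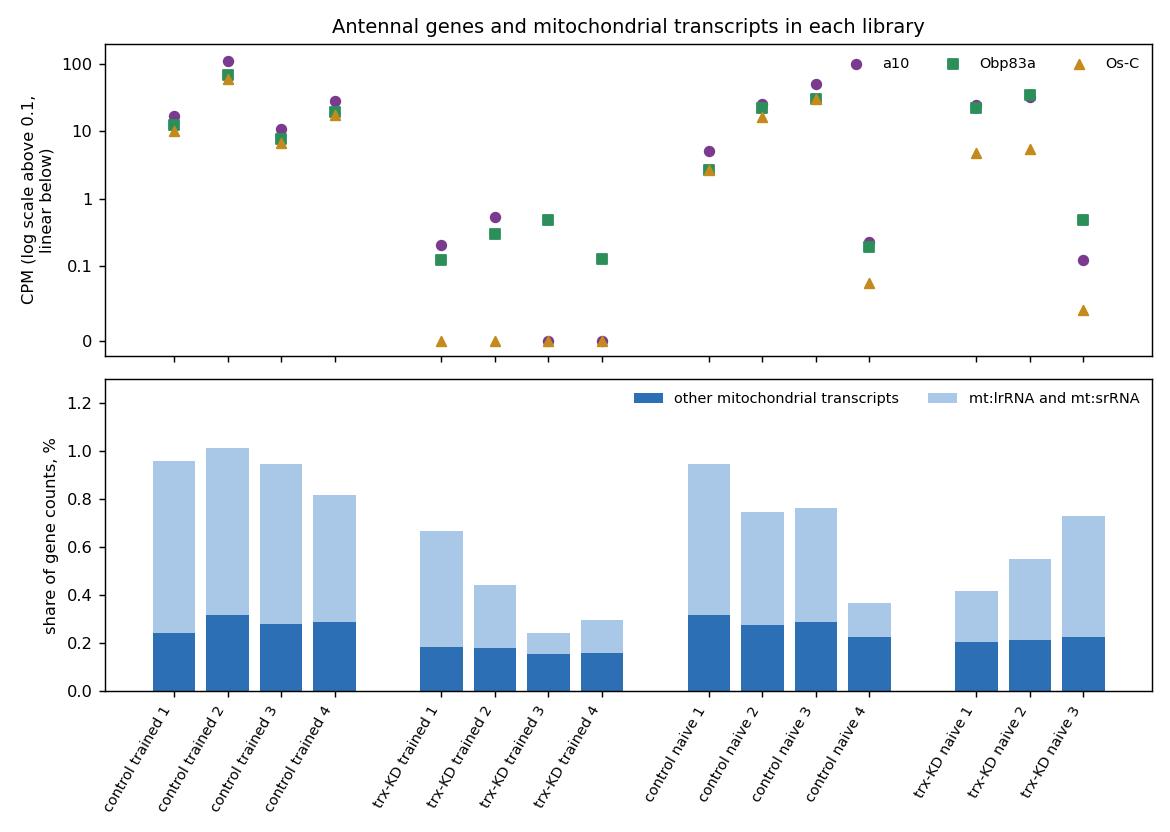
CPM of the antennal genes a10, Obp83a and Os-C (top, log scale above 0.1 and linear below) and percent of gene counts from the mitochondrial genome, split into its 2 ribosomal RNAs and all other transcripts (bottom), in each of the 15 libraries. The antennal genes are near 0 in the 4 trained trx-KD libraries and also in naïve control replicate 4 and naïve trx-KD replicate 3, and the mitochondrial share is 0.667% or less in trained trx-KD against 0.816% or more in trained controls.

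Nuclear genes of energy metabolism fell in part. Of 15 glycolysis genes 5 (33.3%) fell and none rose (median -0.14), where 6.78% of all genes were lower. In the 4 fits 2 of them were called, and 3 without trx-KD replicates 3 and 4. Over all genes, 221 of 9315, 326 of 9312 and 218 of 9319 were lower without control replicate 2, 3 and 4. The number was 265 of 9326 without trx-KD replicate 4, and 245 of 9457 without trx-KD replicates 3 and 4. Ldh, the lactate dehydrogenase (chromosome 3L, 6259105 to 6262694), was read at 202, 138, 124 and 165 CPM in controls and at 49.7, 70.4, 52.8 and 73.3 CPM in trx-KD. The lowest control was far above the highest trx-KD library, and the log2 fold change was -1.36 ± 0.17 (adjusted p = 0.00415). Ldh also fell in naïve flies, by 1.21 (adjusted p = 0.00255). Enolase, Eno, fell by 0.49, the glucose phosphate isomerase Pgi by 0.20 and the sugar nucleotide enzyme UGP by 0.41. The calls of Pgi and UGP were lost in 5 and 4 of the 8 fits that left out 1 library, among them those without control replicate 2 and trx-KD replicate 4. Pgd, an enzyme of the pentose phosphate branch, fell by 0.98, with bcn92 on the other strand.

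Of 67 nuclear-encoded respiratory chain genes 12 (17.9%) fell and 3 (4.48%) rose. Their median log2 fold change of -0.01 changed sign between scalings (-0.08 to 0.01). The genes that fell included SdhB and SdhC of succinate dehydrogenase (-0.64 and -0.47), ND-18 of complex I (-0.56) and RFeSP, the Rieske protein of complex III (-0.35). The 3 that rose, UQCR-6.4 (0.53), ND-MLRQ (0.48) and ND-ASHI (0.28), were highest in trx-KD replicate 3. Their calls were lost when any control library or trx-KD replicate 4 was left out, and those of UQCR-6.4 and ND-ASHI also without trx-KD replicate 3. Without trx-KD replicates 3 and 4, 8 fell and none rose (median -0.12), and in the 4 fits 5 to 7 fell. In naïve flies 19 were lower and none higher.

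Genes of translation were lower in several lists. Of 43 translation factor genes 11 (25.6%) fell and 2 (4.65%) rose (median -0.07), where 6.78% of all genes were lower. In the 4 fits 3 to 8 fell, where 218 to 326 of all genes did. Without trx-KD replicates 3 and 4 the number was 4, against 245 of 9457 over all genes. The initiation factor gene eIF2beta, which encodes a subunit of the factor that brings the initiator tRNA to the ribosome, was read at 54.3, 54.3, 50.1 and 58.1 CPM in controls and at 37.4, 34.0, 24.6 and 27.1 CPM in trx-KD. The groups did not overlap (log2 fold change -0.81 ± 0.12, adjusted p = 0.00708), and the value was the same in naïve flies (-0.81, adjusted p = 0.00255). The gene ver lies on the other strand. The factors eIF2D (-0.67), eIF3a (-0.35) and eIF3m (-0.30) fell too, the last not without control replicate 4. The 2 that rose were eIF4G1 of chromosome 4 and eIF4E1, the cap-binding protein (0.15), whose call held in 2 of the 8 fits without 1 library.

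The tRNA synthetases, which charge tRNAs with amino acids, fell in 8 of 29 cases (27.6%) with none higher (median -0.15). ValRS was read at 60.7, 50.8, 47.4 and 57.1 CPM in controls and at 35.5, 41.0, 25.1 and 29.6 CPM in trx-KD, with no overlap (log2 fold change -0.72 ± 0.14, adjusted p = 0.0169). SerRS fell by 0.66, TyrRS by 0.38 and AlaRS by 0.34, TyrRS not without control replicate 1 or 4 or trx-KD replicate 4. Between 3 and 5 synthetase genes were lower in the 4 fits, and 2 without trx-KD replicates 3 and 4, where the median was -0.018. Of 36 ribosome biogenesis genes 6 (16.7%) fell and 1 rose (median -0.23), and 33 of the 36 had an estimate below 0. The pseudouridine synthase gene Nop60B (-0.42), peng (-0.67), Nop17l (-0.37) and Non1 (-0.18) were lower, the last 3 not without control replicate 4. The Non1 call held in 4 of the 8 fits without 1 library. Tif-IA, the RNA polymerase I initiation factor, rose by 0.30. The call of Tif-IA was lost without control replicate 2, 3 or 4 or trx-KD replicate 3 or 4. Of this list, 1 to 3 genes were lower in the 4 fits, and 1 without trx-KD replicates 3 and 4 (median -0.14). That 1 of 36 was near the share over all genes, 245 of 9457.

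The 76 cytosolic ribosomal protein genes moved in both directions, 14 (18.4%) lower and 6 (7.89%) higher (median -0.06). RpL8 fell from 206 ± 8.02 to 167 ± 11.2 CPM (log2 fold change -0.30, adjusted p = 0.0178), RpS3 by 0.29, RpS30 by 0.42 and RpLP0-like by 0.63, the last with Jra on the other strand. Of the genes that rose, RpS9, RpL5 and RpS3A were highest in trx-KD replicate 3, followed by replicate 4. RpS9 was read at 27.7, 23.8, 28.5 and 23.2 CPM in controls and at 38.1, 36.0, 134 and 73.0 CPM in trx-KD. Replicates 3 and 4 were far above replicates 1 and 2, the SE was large (log2 fold change 1.45 ± 0.36, adjusted p = 0.0349), and the call was lost without control replicate 2 or 4. RpL5 (0.60) and, on chromosome 4, RpS3A (0.59) had the same order of trx-KD libraries, and RpS24 (0.27) had values of 97.6 to 109 CPM in the trx-KD libraries. The RpL5 call held whichever library was left out. The RpS3A call was lost when any control library or trx-KD replicate 4 was left out. That of RpS24 was lost without control replicate 2 or 4 or trx-KD replicate 4. In naïve flies 25 ribosomal protein genes were lower and 2 higher, and 34 of 76 had an unadjusted interaction p under 0.05, where 1055 of 9749 genes had one. After training, 5 to 8 were lower and 1 to 3 higher in the 4 fits, and 4 lower and 2 higher without trx-KD replicates 3 and 4.

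Of 27 chaperone genes, whose proteins assist folding, 9 (33.3%) were lower and none higher (median -0.14), against 6.78% lower over all genes. The number lower was 5 in each of the 4 fits and 6 without trx-KD replicates 3 and 4. Hsc70-3, the BiP chaperone of the endoplasmic reticulum, was read at 648, 565, 553 and 573 CPM in controls and at 388, 423, 423 and 428 CPM in trx-KD. No trx-KD library reached the controls (log2 fold change -0.49 ± 0.06, adjusted p = 0.00415), and Hsc70-3 was also lower in naïve flies, by 0.45 (adjusted p = 0.0106). Gp93, the Hsp90 of the same compartment, fell by 0.57, Hsp83, the cytosolic Hsp90, by 0.36, and the small heat shock gene Hsp26 by 1.24 (11.6 ± 1.96 CPM in controls, 4.89 ± 0.702 in trx-KD, adjusted p = 0.00415).

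Some genes of stress responses were lower as well. Xrp1, a bZIP transcription factor that is induced by ribosomal protein mutations and other stress (chromosome 3R, 18914968 to 18926989), was read at 1102, 1120, 1070 and 1205 CPM in controls and at 740, 777, 745 and 795 CPM in trx-KD. The gap between the groups was larger than the range of either, and the log2 fold change was -0.56 ± 0.05 (adjusted p = 0.00171), with -0.54 in naïve flies (adjusted p = 0.00255). Of the 19 genes listed with it, of Atf4 and oxidative stress responses, 4 (21.1%) fell and none rose (median -0.12). In each of the 4 fits 3 fell, and 2 without trx-KD replicates 3 and 4. The 4 were Xrp1, Xbp1, the transcription factor of the unfolded protein response (-0.23), PEK, its eIF2 kinase (-0.32), and the thioredoxin reductase gene Trxr1 (-0.44). The Trxr1 call was lost when any control library or trx-KD replicate 4 was left out.

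Of 33 proteasome subunit genes 4 (12.1%) fell and 1 rose (median -0.13). Of 18 autophagy genes 4 (22.2%) fell and none rose (median -0.08), where 6.78% of all genes were lower. Rpt2 (-0.59), Prosalpha2 (-0.53), Rpn2 (-0.34) and Rpn13 (-0.33) were lower, and Rpt6 rose from 1.27 ± 0.354 to 5.39 ± 3.68 CPM (adjusted p = 0.0233), with 10.4 and 5.73 CPM in trx-KD replicates 3 and 4 and 3.32 and 2.08 in replicates 1 and 2. Atg8a, the protein that coats autophagosome membranes, was read at 206, 225, 213 and 222 CPM in controls and at 191, 175, 177 and 181 CPM in trx-KD, with no overlap (log2 fold change -0.26 ± 0.05, adjusted p = 0.0196). The autophagy receptor ref(2)P fell by 0.23, Atg3 by 0.36 and Atg4a by 0.38. Without control replicate 4, Rpt2, Rpn13, Prosalpha2, ref(2)P, Atg3 and Atg4a were not called. The calls of Rpn13 and Atg3 held in 4, and those of Prosalpha2 and ref(2)P in 5, of the 8 fits without 1 library. Each of these lists had 1 to 3 lower genes in the 4 fits. When trx-KD replicates 3 and 4 were left out, no proteasome gene and 1 autophagy gene was lower, with medians of -0.14 and -0.01.

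**Figure D5:**
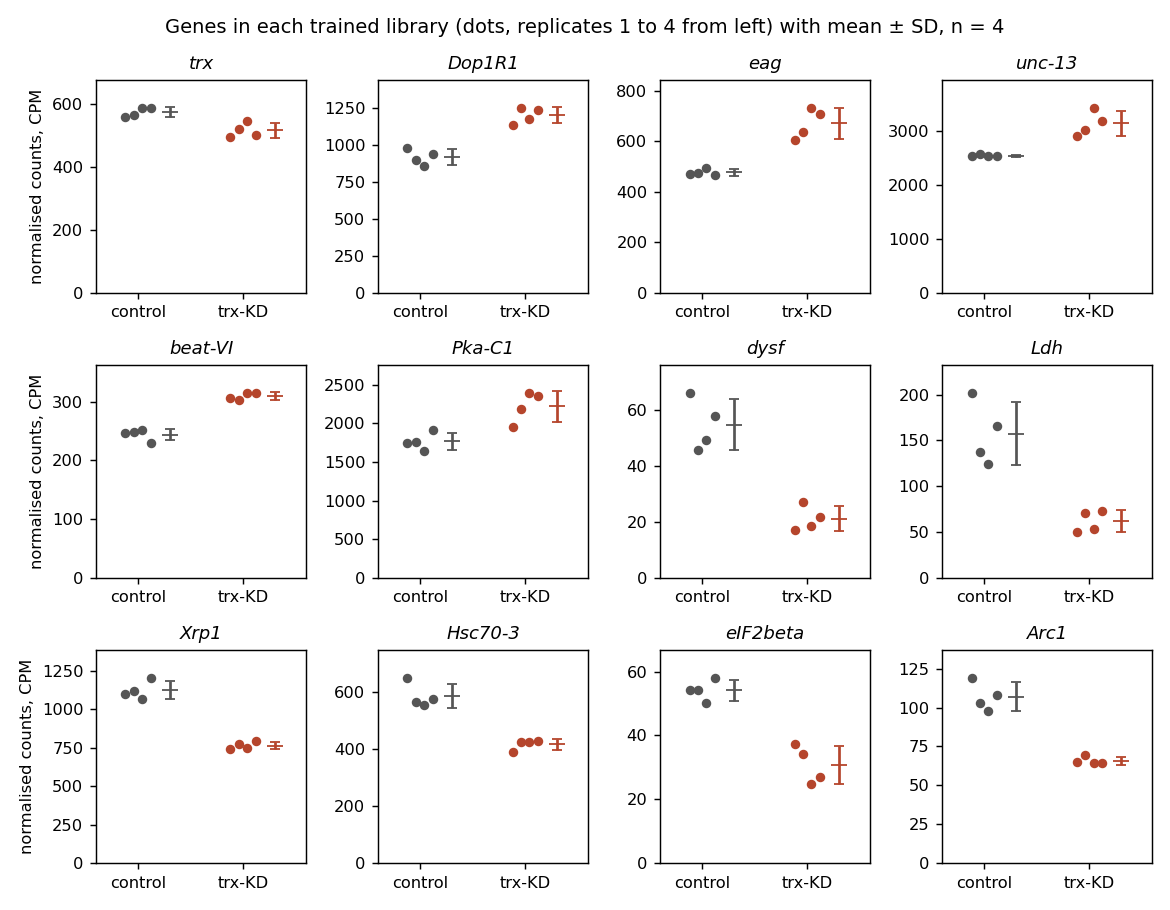
CPM of 12 genes in the 4 trained control and 4 trained trx-KD libraries. Dots are replicates 1 to 4 and bars the mean ± SD, each gene on its own axis. The groups of each gene do not overlap, with trx-KD higher for Dop1R1, eag, unc-13, beat-VI and Pka-C1 and lower for trx, dysf, Ldh, Xrp1, Hsc70-3, eIF2beta and Arc1.

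Genes of chromatin regulation, the class to which trx belongs, gave few calls. Over all genes, 7.12% were higher and 6.78% lower. Of 20 genes of the trithorax and COMPASS group 3 (15%) rose and 1 (5%), trx itself, fell, with a median log2 fold change of -0.03. Ptip, a subunit of the Trr COMPASS-like complex, rose from 202 ± 10.8 to 259 ± 25.5 CPM (adjusted p = 0.0195), and Utx, the H3K27 demethylase of that complex, by 0.26. The third was Hcf of chromosome 4. Of these rises, those of Utx and Hcf were lost when any control library or trx-KD replicate 3 or 4 was left out. In the Brahma remodelling complex 1 of 12 genes (8.33%) fell, osa, by 0.27, a call lost under the same fits. None of 19 Polycomb group genes was called by edgeR, while 4 had an unadjusted p under 0.05 and DESeq2 called 3. Of 17 histone acetylation genes 2 (11.8%) fell, the deacetylases Sirt6 (-0.83) and Sirt7 (-0.49).

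Hox genes are the classical targets of Trx, and 1 of the 10 tested, with their cofactors, rose and 1 fell. These shares of 10% each were near the 7.12% higher and 6.78% lower of all genes. Ubx, which sets segment identity in the thorax and abdomen, was read at 10.1, 7.12, 9.43 and 9.37 CPM in controls and at 4.33, 3.38, 7.95 and 2.90 CPM in trx-KD. Trx-KD replicate 3 lay within the control range, so the groups overlapped (log2 fold change -0.93 ± 0.27, adjusted p = 0.0591), and the call was lost without control replicate 1, 3 or 4 or trx-KD replicate 4. The pair-rule gene ftz, of the Antennapedia complex, had 0.36 to 1.05 CPM in controls and 1.07 to 2.21 CPM in trx-KD (log2 fold change 1.36 ± 0.37, adjusted p = 0.0471), a call lost without control replicate 2, 3 or 4 or trx-KD replicate 4.

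Of 18 activity-regulated genes, those that respond to firing of neurons, 3 (16.7%) fell and 1 (5.56%) rose. The shares over all genes were 6.78% lower and 7.12% higher. Arc1, a retrovirus-derived gene whose protein carries RNA between cells (chromosome 2R, 14357927 to 14360297), was read at 119, 103, 97.6 and 108 CPM in controls and at 64.7, 69.5, 64.5 and 64.3 CPM in trx-KD. The 4 trx-KD libraries were nearly equal and all below the controls (log2 fold change -0.70 ± 0.07, adjusted p = 0.00171). The naïve value of Arc1 was -0.35 and was not called (adjusted p = 0.297). Scaled over all 15 libraries, Arc1 was at 89.7, 96.1, 112.6 and 52.3 CPM in naïve controls and at 67.8, 63.3 and 74.2 CPM in naïve trx-KD. Only naïve control replicate 4 lay below the naïve trx-KD libraries, and the other naïve controls lay above them. The bHLH-PAS transcription factor gene dysf (chromosome 3R, 26076592 to 26098711) was read at 66.2, 45.6, 49.4 and 57.8 CPM in controls and at 16.9, 27.2, 18.6 and 21.7 CPM in trx-KD. All trx-KD libraries were below all controls, and dysf fell by 1.38 (adjusted p = 0.0039), with a naïve log2 fold change of -1.28 (adjusted p = 0.00255). Jra, the fly Jun, fell by 0.35, a call lost without control replicate 2 or 4. The gene that rose was sr, an Egr-type zinc finger gene and marker of recent activity, with 186, 186, 186 and 202 CPM in controls and 228, 243, 270 and 265 CPM in trx-KD. All trx-KD libraries of sr were higher (log2 fold change 0.41 ± 0.06, adjusted p = 0.00804), and the naïve value was 0.15 (adjusted p = 0.404).

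Among 12 genes of sex determination and dosage compensation, the roX RNAs rose, which in males guide the MSL complex to the X chromosome. The levels of lncRNA:roX1 went from 2256 ± 55.1 to 2648 ± 160 CPM (adjusted p = 0.0231) and those of lncRNA:roX2 from 135 ± 6.85 to 182 ± 19.0 CPM (adjusted p = 0.0127). The third gene that rose was fru, the transcription factor of male courtship (0.21), and msl-1 (-0.20) and tra (-0.31) fell. The calls of msl-1 and tra held in only 2 and 3 of the 8 fits without 1 library. Of 1458 X-linked genes 6.31% were higher and 7.96% lower, close to the shares over all genes. The sex of the flies is not in the labels.

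Some genes of the antenna were at or near 0 in the trained trx-KD libraries. Of 48 tested genes of olfactory appendages 9 (18.8%) fell and 2 (4.17%) rose, and 43 of the 193 listed were at 0 in all 8 libraries. Over all genes 6.78% were lower and 7.12% higher. The summed level of the olfactory list was 1023 to 1428 CPM in controls and 829 to 1078 CPM in trx-KD. Obp83a, an odorant-binding protein secreted by support cells of antennal sensilla, was read at 12.5, 68.9, 7.54 and 19.0 CPM in controls and at 0.121, 0.297, 0.478 and 0.126 CPM in trx-KD. The control values themselves ranged widely, replicate 2 being the highest, and the log2 fold change was -6.66 ± 0.88 (adjusted p = 0.00459). Of Os-C and a5, both named after their values were seen, no read was counted in trx-KD. Against a floor of 3 counts over the group, Os-C was at least 626-fold lower and a5 at least 216-fold lower, bounds that were 306 and 103.6 without control replicate 2, the highest control. Obp83b, Obp19a and Obp56a fell as well, and a10, also chosen after its values were seen, had the same pattern.

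The antennal genes a10 and Obp83a did not follow the genotype in naïve flies. Scaled over all 15 libraries, a10 was read at 5.05, 25.5, 51.3 and 0.230 CPM in naïve controls and at 24.6, 32.4 and 0.122 CPM in naïve trx-KD. Naïve control replicate 4 and naïve trx-KD replicate 3 were thus near 0, like all trained trx-KD libraries, and the naïve log2 fold change of Obp83a was 0.50 (adjusted p = 0.821). Obp56a was at 7.58, 8.89, 11.1 and 3.45 CPM in naïve controls and at 4.27, 3.14 and 4.195 CPM in naïve trx-KD. Of 47 olfactory appendage genes tested in naïve flies 8 were lower and 1 higher, where 7.88% of all genes were lower and 6.27% higher. The labels do not say how heads were collected in each pool. The part of antennal tissue in the other gene groups was not tested.

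Other cell types gave few calls after training. Of 18 muscle genes 2 (11.1%) fell, up (-0.82) and Act88F (-0.79). Of 13 glial genes 2 (15.4%) fell, Eaat1 (-0.26) and AnxB9 (-0.34). Over all genes 6.78% were lower. Of 20 photoreceptor genes 1 rose and 1 fell. The 4 named muscle and glial genes all lost their call without control replicate 2. Calls of up, Act88F, Eaat1 and AnxB9 held in 5, 2, 1 and 5 of the 8 fits without 1 library. Without trx-KD replicates 3 and 4, 4 muscle genes were lower (median -0.64), and in the 4 fits 0 to 1. In naïve flies 8 muscle genes were lower (median -0.345), where 7.88% of all genes were. In the fat body list Lsp2, a larval storage protein, rose from 142, 122, 183 and 119 CPM to 361, 169, 446 and 300 CPM (log2 fold change 1.17 ± 0.24, adjusted p = 0.0203), trx-KD replicate 2 lying within the control range. The yolk protein gene Yp1 was at 140 CPM in trx-KD replicate 4 and at most 0.887 CPM in the other 7 libraries. Its call (adjusted p = 0.0864) rests on that library and was lost when it was left out (log2 fold change -0.48).

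Of the 15 largest rises among genes of higher level, with no overlap between groups, most had their highest values in trx-KD replicates 3 and 4. They included RpS9, NAAT1, a transporter of essential amino acids (0.86, not called without control replicate 4), the water channel gene Drip (0.78), the nuclear receptor gene Hr3 (0.75), PlexB and RpL5. Hr3 was read at 76.9, 90.3, 87.5 and 88.1 CPM in controls and at 103, 100, 221 and 154 CPM in trx-KD, and its call was lost when any control library or trx-KD replicate 4 was left out. Steadier rises were those of CG4660 (0.73) and CG31323 (0.73), which were called without any 1 library. DJ-1alpha, a relative of the Parkinson's disease gene DJ-1, rose by 0.65 (adjusted p = 0.0237).

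The 15 largest falls were led by mt:Cyt-b, mt:ND4, mt:ND5, dysf, mt:lrRNA, Ldh and MFS3. MFS3, a transporter of the major facilitator family, was read at 42.7, 32.4, 28 and 32.4 CPM in controls and at 10.3, 16.7, 12.2 and 14.8 CPM in trx-KD. Its groups did not overlap (log2 fold change -1.33 ± 0.17, adjusted p = 0.00415), and it also fell in naïve flies, by 0.84. Falls of near 1 or more were measured for the cytochrome P450 gene Cyp4aa1 (-1.27), with Strn-Mlck on the other strand, CG15784 (-0.99), CG17108 (-0.96) and Jhbp12, of the juvenile hormone binding protein family (-0.93), and the naïve log2 fold changes of these 4 were -1.29, -0.73, -1.20 and -1.22.

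One gene was read in every trx-KD library and in no control. The gene sordd2 (chromosome X, 15796908 to 15799162), noticed after its values were seen, had 2.91, 2.19, 4.17 and 4.22 CPM in trained trx-KD libraries and 0 in the 4 trained controls, at least 97.2-fold higher against a floor of 3 counts over the control group. In naïve flies it was at 1.86, 1.77 and 1.75 CPM in trx-KD and at 0 in the 4 controls. Its neighbour sordd1 was at 14.9 CPM in controls and 14.4 CPM in trx-KD (adjusted p = 0.779).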

How the data were processed

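INTACT-RNAseq of MB nuclei was analysed in 15 libraries, which GEO's labels place in 4 groups. The authors deposited whole-number read counts per gene for each library, without normalization. Their processing notes name STAR 2.5.3a, HTSeq 0.7.1 and dm6, while the strand setting and annotation release are not given in the sources used here. Nothing in the labels says that replicates came from separate fly cultures, so p-values measure the spread between these libraries, which may be technical. Each file lists 17560 features. The row of the transgenic tag (0.495% to 0.681% of counts in the trained libraries) was left out, and symbols and BDGP6.54 coordinates were matched by gene ID for 17253 genes. Of the 146 genes that were candidates for the text, 54 overlap a gene on the other strand, and their reads cannot be told apart.

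Genes were kept by filterByExpr (minimum count 10, minimum total 15), scaled by TMM and tested with the quasi-likelihood test of edgeR 4.0.16 (R 4.3.3, limma 3.58.1) on the 8 trained libraries, adjusting p-values by Benjamini-Hochberg across every tested gene and calling those under 0.1. Every adjusted p in the text is of this kind, all tests being two-sided. Naïve libraries were fitted the same way, and the interaction over all 15. CPM are TMM-scaled, and log2 CPM for filters used a prior count of 2. The gene lists were described by counts and medians, without a test.

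The gene lists and genes were chosen with earlier results of these data known. Named genes are trx, w, Dcr-2, the 15 largest called rises and falls whose groups did not overlap and whose log2 CPM averaged 3 or more, up to 4 called members of each list and direction, and 5 genes of the interaction. Exceptions are named in the text. Alternatives were DESeq2 1.42.0, upper-quartile, library-size and median-of-ratios scaling, no filter, a mean CPM of at least 5, nuclear protein-coding genes, all 15 libraries, a replicate block, a threshold of 0.05 and fits without each library in turn. Fits were checked beforehand on simulated counts. The trained fit called 9.23%, 56.1% and 90.9% of simulated log2 changes of 0.25, 0.5 and 1. For the interaction these shares were 4.69%, 27.3% and 67.7%.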

Additional observations from a re-analysis of the deposited data

Results flagged for a closer look

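In all, 298 groups of 4 libraries were examined for a single library far from the others, and 21 were found. Most groups were levels of the genes that the text may name, in trained libraries. The rest were mitochondrial shares, in trained libraries and naïve controls, and none of these was flagged. Chance gives about 1 in 20 such groups.

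Control replicate 1 was the library apart in 7 cases. It was the highest control for Fife (832 CPM against 771 to 777 in the others), AlaRS (33.6 against 29.3 to 29.9) and Nop17l (72.2 against 65.6 to 66.7), and the lowest for CrebB (94.0 against 106 to 108), Cka (20.6 against 23.3 to 23.6), mt:CoI (871 against 1099 to 1145) and UGP (45.3 against 55.2 to 57.2). Control replicate 2 was the highest for DJ-1alpha (7.83 CPM against 5.62 to 5.99), mt:ND3 (4.52 against 3.35 to 3.45) and the odorant-binding protein gene Obp19a (16.6 against 1.94 to 3.56). Control replicate 4 was the highest for Hcf (205 CPM against 199.6 to 200.1), ND-ASHI (39.2 against 33.5 to 34.3), sr (202 against 185.6 to 185.8) and Obp56a (10.05 against 5.79 to 6.31).

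In trx-KD, replicate 1 was the lowest for Hsc70-3 (388 CPM against 422.5 to 428) and the highest for the glutamate transporter gene Eaat1 (182.5 against 144 to 145). Replicate 2 was the highest for Hsp26 (5.93 CPM against 4.43 to 4.66), Arc1 (69.5 against 64.3 to 64.7) and Obp83b (0.119 against 0 in the others). Replicate 3 was the lowest for AlaRS (22.1 CPM against 24.7 to 25.1), and replicate 4 the highest for the yolk protein gene Yp1 (140.1 CPM against 0.119 to 0.53).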

How the results depend on the processing

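After training, the count of 1284 called genes stayed within 1.5 times under DESeq2, upper-quartile, library-size and median-of-ratios scaling, no filter, a mean CPM of at least 5, nuclear protein-coding genes, all 15 libraries and the replicate block (1150 to 1758). It was 721 at an adjusted p under 0.05, 543 without trx-KD replicates 3 and 4, and 495 to 1808 with 1 library left out. In naïve flies 1333 genes were called, 703 at 0.05, 2150 without naïve control replicate 4 and naïve trx-KD replicate 3 (chosen after seeing the data), and 330 to 2558 with 1 library left out. The interaction gave 0 calls with edgeR, 24 with DESeq2 and 0 to 189 with 1 library left out. Replicate numbers did not pair the trained libraries. Deviations of same-numbered trained libraries correlated at 0.08, -0.06, 0.12 and 0.06, and not every library correlated best with its own number. Such correlations were not computed for the naïve libraries. With the number as a block, 1371 genes were called after training, 2712 in naïve flies and 0 in the interaction. The share of calls that were higher was 51.2%, and 58.2% to 59.9% under DESeq2, upper-quartile and median-of-ratios scaling.

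Library-size scaling shifted the median of all genes by -0.0715 and moved most list medians: cytosolic ribosomal proteins to -0.14, translation factors to -0.14, glycolysis to -0.22, proteasome to -0.20, chaperones to -0.20, autophagy to -0.15, trithorax and COMPASS to -0.10, Kenyon cell identity to 0.11, cAMP and G protein signalling to 0.041, receptors to 0.093, ion channels to 0.071, synaptic release to 0.091, dpr, DIP, beat and side to 0.13, and the Xrp1 list to -0.19. Ion channels moved to 0.16 under both DESeq2 and median-of-ratios factors. With 1 library left out, the medians were -0.13 to -0.043 for translation factors, 0.16 to 0.23 for Kenyon cell identity, 0.14 to 0.21 for cAMP signalling, 0.14 to 0.17 for ion channels and -0.16 to -0.11 for the Xrp1 list. In all, 28 of 247 list medians recomputed moved by more than the spread between replicates. Yp1 lay between -0.48 and 6.38 with 1 library left out, reversed without trx-KD replicate 4, and at -0.65 without replicates 3 and 4. Of 143 called genes among those examined for the text, 92 were called whichever library was left out. Counting error limits genes of few reads, such as mt:ND6 and ftz. Causes were not tested.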
